A study of Mus musculus with 10 samples.

Results

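The small proline-rich protein family was examined through 8 genes, Sprr1a, Sprr1b, Sprr2b, Sprr2d, Sprr2e, Sprr2f, Sprr2h and Sprr3, of 22180 genes measured in mouse jejunum. Each had 1 probe set, the group of probes on the array that reads a transcript, and that probe set carries 1 gene symbol. The other 4 Sprr genes with such a probe set were not named as members and are described apart. The family was chosen by its log2 intensities in the same comparison of knockout with control, with those results already known, so the differences between groups below are descriptions. Adjusted p-values given for members come from a fit over all genes and are not an independent test of them. RNA was measured on 10 Affymetrix whole-transcript arrays. The 5 fed knockout arrays came from Pcyt1aLoxP/LoxP;VilCreERT2 mice, in which both copies of Pcyt1a are floxed and a tamoxifen-inducible Cre recombinase is driven by the villin promoter, active in the intestinal epithelium. The 5 fed control arrays came from Pcyt1aLoxP/LoxP mice without Cre. Both groups received tamoxifen for 5 days. Only the knockouts carried Cre, and effects of Cre and of losing Pcyt1a cannot be told apart. All were females of 10 to 12 weeks that ate high-fat food for 3 days, were fasted overnight and then ate it again for 2 hours before 3 cm of jejunum was taken.

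Small proline-rich proteins are short proteins built from proline-rich repeats. In stratified epithelia such as skin, transglutaminases join them to loricrin and involucrin through glutamine and lysine residues to form the cornified envelope, the tough shell beneath the surface of dead outer cells. The family is also known outside skin. In the gut, Sprr2a is known as a bactericidal protein of the epithelium that is induced by colonising bacteria and by type 2 cytokines, while Sprr1a is induced by stress in several tissues, among them injured nerve and heart muscle.

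The genes lie in a row on chromosome 3 within the epidermal differentiation complex, a cluster of genes for cornified envelope proteins. In RefSeq gene order (GRCm38.p6) the row runs from Sprr2a1 to Sprr4 and holds 17 Sprr genes and pseudogenes. The nearest protein-coding gene before it is Lelp1, and after it comes Ivl, which encodes involucrin. Sprr2b stands near one end and Sprr1a near the other, with 11 Sprr genes and pseudogenes between them. These were the members with the clearest array signal, and their promoters are shown with those of Sprr2e and Sprr1b, their relatives with dim signal, so that the pairs can be compared. Each window holds 250 bases before and 50 bases after the annotated start, taken from RefSeq (GRCm38.p6) and written 5′ to 3′ on the strand of the gene. Capitals mark matches to the AP-1 motif TGANTCA, the octamer ATTTGCAT and the TATA box TATAAA. The windows lie at chr3:92485832-92486131 (Sprr1a, minus strand), chr3:92438730-92439029 (Sprr1b, minus strand), chr3:92316455-92316754 (Sprr2b, plus strand) and chr3:92351893-92352192 (Sprr2e, plus strand).
Sprr1a: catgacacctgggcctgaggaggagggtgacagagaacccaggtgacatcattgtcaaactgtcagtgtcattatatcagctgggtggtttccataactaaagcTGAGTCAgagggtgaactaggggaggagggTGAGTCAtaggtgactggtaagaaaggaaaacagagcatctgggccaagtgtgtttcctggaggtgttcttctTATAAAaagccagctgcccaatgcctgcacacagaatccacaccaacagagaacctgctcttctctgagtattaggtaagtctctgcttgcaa
Sprr1b: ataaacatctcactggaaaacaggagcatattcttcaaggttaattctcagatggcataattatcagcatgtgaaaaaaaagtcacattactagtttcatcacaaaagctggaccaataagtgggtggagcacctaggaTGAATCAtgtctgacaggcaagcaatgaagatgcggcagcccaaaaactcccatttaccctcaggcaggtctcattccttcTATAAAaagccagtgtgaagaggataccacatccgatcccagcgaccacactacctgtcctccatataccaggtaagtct
Sprr2b: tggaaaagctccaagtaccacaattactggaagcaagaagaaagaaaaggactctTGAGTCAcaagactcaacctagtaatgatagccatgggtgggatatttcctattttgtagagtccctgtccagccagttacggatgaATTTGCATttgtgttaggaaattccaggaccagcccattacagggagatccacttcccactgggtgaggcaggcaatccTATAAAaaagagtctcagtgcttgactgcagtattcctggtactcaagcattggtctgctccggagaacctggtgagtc
Sprr2e: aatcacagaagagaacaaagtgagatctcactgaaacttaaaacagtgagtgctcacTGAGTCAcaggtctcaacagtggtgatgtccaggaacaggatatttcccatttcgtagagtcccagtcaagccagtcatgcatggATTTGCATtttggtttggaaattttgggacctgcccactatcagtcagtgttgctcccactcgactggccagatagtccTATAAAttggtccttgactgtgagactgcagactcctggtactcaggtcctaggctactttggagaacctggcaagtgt

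The promoter windows of the 8 members shared a plain layout. A TATA box was found in 8 of 8, against 13.6% of all 32851 promoter windows of that length. With positions counted from the annotated start, it began at -29 in Sprr2b, Sprr2d, Sprr2e, Sprr2f and Sprr2h, and at -43 in Sprr1a. The AP-1 motif was found in 7 of 8 members, Sprr3 being the exception, against 7.81% of all windows. Sprr1a held 2 AP-1 matches, beginning at -146 and -116, and each of the other 6 held 1. The octamer, which was searched for after the sequences had been seen, was in all 5 Sprr2 members, beginning between -112 and -108, in none of the other 3 members, and in 1.74% of all windows. Among the other Sprr genes, the windows of Sprr2i and Sprr2k also held the AP-1 motif, the octamer and the TATA box. The windows of Sprr2a1, Sprr2a2, Sprr2a3 and Sprr4 held none of these. All motifs were searched on both strands.

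Other motifs separated the members. CCAAT was in 6 of 8 (37.4% of all windows), the KLF-type motif CACCC in 4 of 8 (57.5%) and the ETS-type motif GGAAGT in 2 of 8, Sprr2b and Sprr3 (23.8%). The STAT6-type motif (6.95% of all windows), the cyclic AMP response motif TGACGTCA (1.79%) and the GATA-type motif AGATAA (11.2%) were in 0 of 8, and the STAT6-type motif did occur in the windows of Sprr2a1, Sprr2a2 and Sprr2a3. In Sprr1a 1 KLF-type match overlapped the AP-1 match nearer to the start, and in Sprr2d and Sprr2e the CCAAT match overlapped the TATA box. Over the 10 pairs of Sprr2 members the windows were 61.9% to 89.1% identical in global alignment, with Sprr2d and Sprr2e the closest pair. Over the other 18 pairs identity was 48.3% to 58.0%. No identity between windows of unrelated genes is given here for comparison, so likeness by descent is not read from these shares. A motif match is a string of letters, and binding of any factor was not measured.

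**Figure D1:**
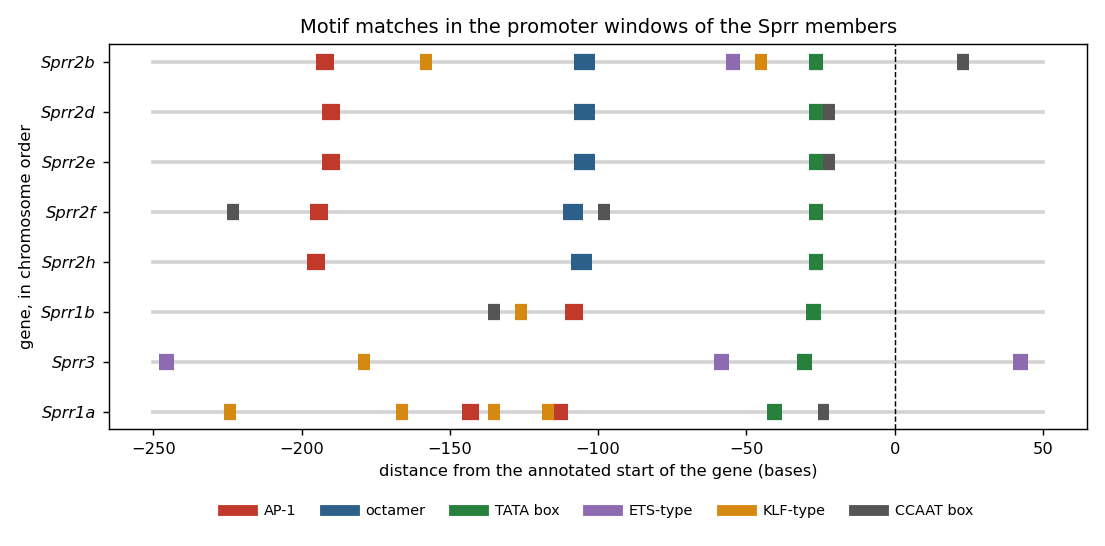
Matches to 6 motifs in the promoter windows of the 8 members, by distance in bases from the annotated start (dashed line), with genes in chromosome order. The AP-1 match, the octamer and the TATA box sit at nearly the same distances in the 5 Sprr2 members, while Sprr1a carries 2 AP-1 matches closer to its start.

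Median intensities over all probe sets were 45.8 to 48.1 per array (5.52 to 5.59 on the log2 scale), which the authors' normalization sets and which says nothing of how alike the samples were. Pcyt1a, the targeted gene, had a log2 intensity of 9.22 ± 0.20 (SD, n = 5) in control and 7.51 ± 0.16 (SD, n = 5) in knockout, and the groups did not overlap. The position of its probes relative to the loxP sites is not known here. Enterocyte markers such as Fabp1, Fabp2 and Sis, 13 of 13 measured, had mean levels between 8.30 and 13.76, all above the array median. No label says whether every array is its own animal, so p-values measure only the spread between these samples, and the spread between arrays may be technical in part.

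Sprr1a encodes a cornified envelope precursor that is also induced by cytokines of the gp130 receptor family in heart muscle cells. It was lower in every knockout array than in every control array. Its log2 intensity was 6.02, 6.50, 6.33, 5.79 and 6.68 in knockouts 1 to 5 and 7.83, 7.39, 7.04, 7.64 and 7.25 in controls 1 to 5. The highest knockout, knockout 5, lay below the lowest control, control 3. The group means were 6.26 ± 0.36 (SD, n = 5) and 7.43 ± 0.31 (SD, n = 5), a difference of -1.17 (SE 0.18, 95% confidence interval -1.57 to -0.77), which leaves 44.6% of the control level. Whether fewer cells carried the transcript or each cell held less of it cannot be told apart in whole tissue.

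Sprr2b encodes a protein of the Sprr2 branch, to which the bactericidal Sprr2a also belongs. It stood in the opposite order, with overlap. Its log2 intensity was 9.02, 9.43, 8.89, 8.86 and 9.42 in knockouts 1 to 5 and 8.74, 8.66, 7.83, 9.17 and 8.21 in controls 1 to 5. Controls 3 and 5 lay below all other arrays, and control 4 lay among the knockouts. Control averaged 8.52 ± 0.52 (SD, n = 5) and knockout 9.12 ± 0.28 (SD, n = 5). Knockout was thus higher by 0.60 (SE 0.22, 95% confidence interval 0.12 to 1.08), or 1.52-fold. Without control 3 the difference was 0.43, and without control 4 it was 0.76.

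In the fit across all 22180 genes (limma), 1 of 8 members was called at an adjusted p under 0.05, against 0.343% of all genes. This was Sprr1a (limma adjusted p = 0.0242), and Sprr2b was not called (limma adjusted p = 0.302). The groups did not overlap in 1 of 8 members, again Sprr1a, and in 2.77% of all genes. By direction, 1 member was lower without overlap, against 1.56% of all genes, and 0 were higher without overlap, against 1.2%. Nothing is read from these counts or from the call of Sprr1a, since the contrast was known when the members were chosen. The call of Sprr1a ended with the omission of knockout 2 (limma adjusted p = 0.0606), knockout 3 (0.0519), knockout 4 (0.0604), control 1 (0.0618), control 2 (0.0583) or control 4 (0.0708), though its difference then lay between -1.23 and -1.05.

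**Figure D2:**
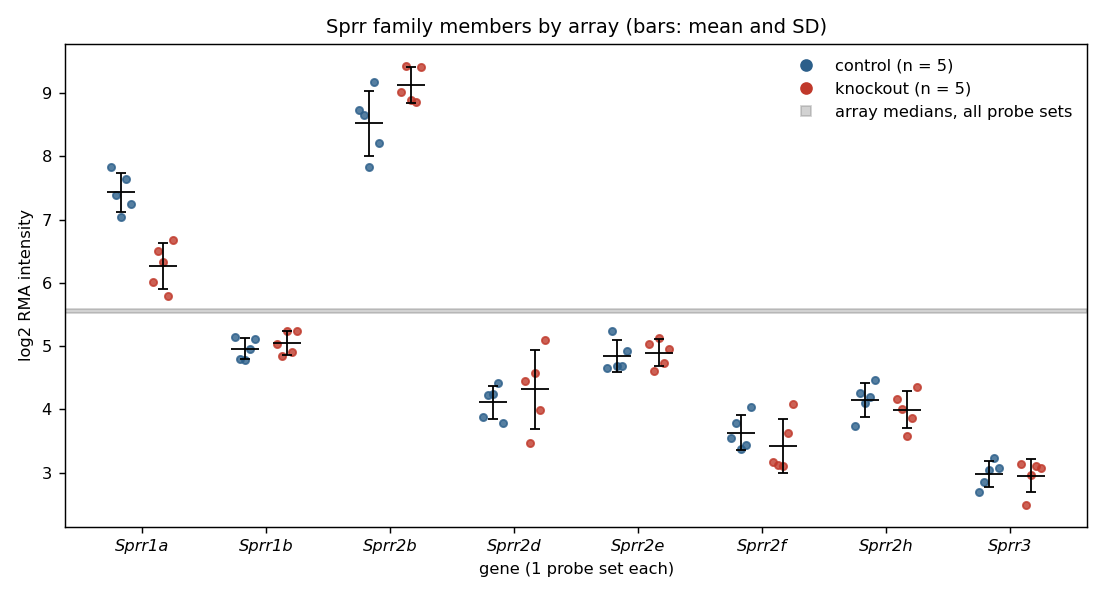
Log2 intensity of the 8 members in each array, with controls in blue and knockouts in red, bars showing mean and SD (n = 5 each) and a grey band showing the array medians of all probe sets. Sprr1a and Sprr2b lie above the band in all 10 arrays and differ in opposite directions, and the other 6 lie below it.

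The other 6 members had dim signals and similar values in both groups. Their linear intensities ran from 5.6 to 37.9, below the median of the array in all 10 arrays, and detection calls were not used, so it is not known whether these transcripts were present at all. Their differences between knockout and control lay between -0.21 and 0.21 on the log2 scale, and their 95% confidence intervals between -0.63 and 0.76. A filter that removed the dimmest 30% of genes kept 3 of 8 members, Sprr1a, Sprr2b and Sprr1b. Intensities of different probe sets depend on the probes and are not compared here as amounts of transcript.

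Sprr1b, the closest relative of Sprr1a by name and a cornified envelope precursor like it, did not share the low knockout values. Its knockout arrays spanned 4.84 to 5.24 (median 5.04) and its controls 4.78 to 5.15 (median 4.96), and the means differed by 0.09 (SE 0.11, 95% confidence interval -0.15 to 0.34). Sprr3, a protein best known from the lining of the oesophagus, spanned 2.49 to 3.14 in knockout (median 3.07) and 2.70 to 3.23 in control (median 3.04), with a difference of -0.03 (SE 0.14). In both genes the 2 groups covered nearly the same range.

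The 4 dim Sprr2 members did not follow Sprr2b as a group. Sprr2d spanned 3.46 (knockout 2) to 5.10 (knockout 5) in knockout and 3.79 to 4.41 in control, with a difference of 0.21 (SE 0.25). Sprr2e spanned 4.61 to 5.13 in knockout and 4.66 to 5.24 in control, with a difference of 0.05 (SE 0.14). These differences are within the spread between arrays of 1 group. Sprr2f averaged 3.63 ± 0.27 (SD, n = 5) in control against 3.42 ± 0.43 (SD, n = 5) in knockout. Sprr2h averaged 4.15 ± 0.27 (SD, n = 5) in control against 4.00 ± 0.30 (SD, n = 5) in knockout. Over the 8 members 4 had higher and 4 lower means in knockout, with a median difference of 0.01, beside a median of -0.000354 over all genes.

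The other 4 Sprr genes with a probe set of their own, Sprr2g, Sprr2j-ps, Sprr2k and Sprr4, were dim too. Sprr2g and Sprr2j-ps are annotated as transcribed pseudogenes. In the fit over all genes 0 of the 4 were called (limma), and 0 had an unadjusted p under 0.05. Their differences were 0.06 (SE 0.13) for Sprr2g, 0.05 (SE 0.16) for Sprr2j-ps, -0.04 (SE 0.10) for Sprr2k and -0.10 (SE 0.09) for Sprr4. Their median was 0.005.

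A further 5 probe sets carry several Sprr2 symbols each and cannot be assigned to 1 gene. Of these, 4 are annotated to near-identical copies of Sprr2a, and 1 of those also to Sprr2b. A pair of the 4 held identical values in all arrays and is counted once. The probe set that also names Sprr2b, A in the plot of differences, read 12.29, 12.71, 12.43, 12.42 and 12.80 in knockouts 1 to 5 and 12.43, 12.09, 11.67, 12.51 and 11.85 in controls 1 to 5. As for Sprr2b, controls 3 and 5 were the lowest of the 10 arrays and control 4 the highest control. The difference was 0.42 (SE 0.17) for this probe set, 0.73 (SE 0.29) for the identical pair and 0.80 (SE 0.33) for the remaining Sprr2a probe set. In a fit over all 41345 probe sets, which called 0.0943% of them, none of these 3 was called (limma adjusted p = 0.455, 0.45 and 0.455). Their 95% confidence intervals were 0.04 to 0.79, 0.08 to 1.37 and 0.08 to 1.52. The fifth probe set, named for Sprr2i, Sprr2f and Sprr2e, was dim and showed -0.09 (SE 0.16). Sprr2b and the Sprr2a copies resemble each other closely, and how far their probes tell them apart was not tested.

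**Figure D3:**
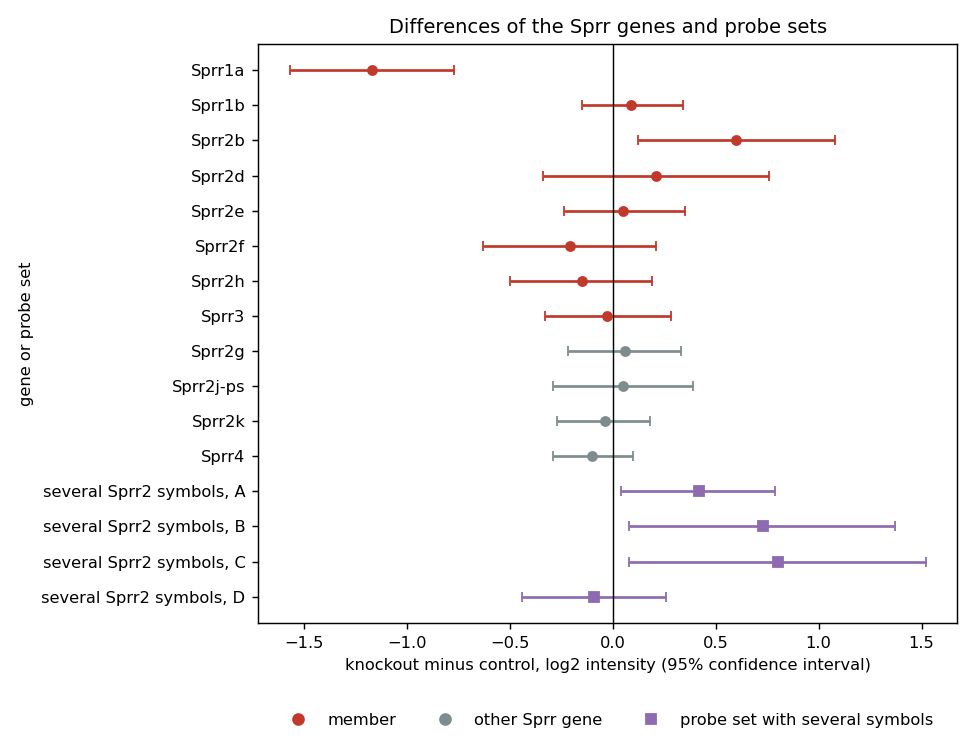
Difference between knockout and control means in log2 intensity, with 95% confidence intervals, for the 8 members (red), 4 other Sprr genes (grey) and 4 distinct probe sets with several Sprr2 symbols (purple; A also names Sprr2b, B is the identical pair, C is the remaining Sprr2a probe set and D names Sprr2i, Sprr2f and Sprr2e). Sprr1a lies left of 0, and Sprr2b and probe sets A to C lie right of it.

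Sprr1a and Sprr2b deviated together within the groups although their group means differed in opposite directions. In knockout both were highest in knockouts 2 and 5 and lowest in knockout 4. In control both were lowest in control 3, next lowest in control 5 and highest in controls 1 and 4. After the group means were removed, the deviations of the pair had a Pearson r of 0.79 and a Spearman rho of 0.78 over 10 arrays, and r was 0.80 without knockouts 4 and 5. With the 3 Sprr2a probe sets A, B and C, the deviations of Sprr1a had r of 0.86, 0.87 and 0.88. Those of Sprr2b had r of 0.94, 0.94 and 0.88 with the same probe sets, and A and B had r of 1.0 with each other. The values of Sprr1a with A, B and C are thus not separate agreements. Values of 1 array share its RNA and its hybridisation, so these correlations are given as descriptions without a p. The other 27 pairs of members had r between -0.41 and 0.63. The highest of these was between Sprr2d and Sprr3, both dim, and it was 0.24 without knockouts 2 and 5.

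**Figure D4:**
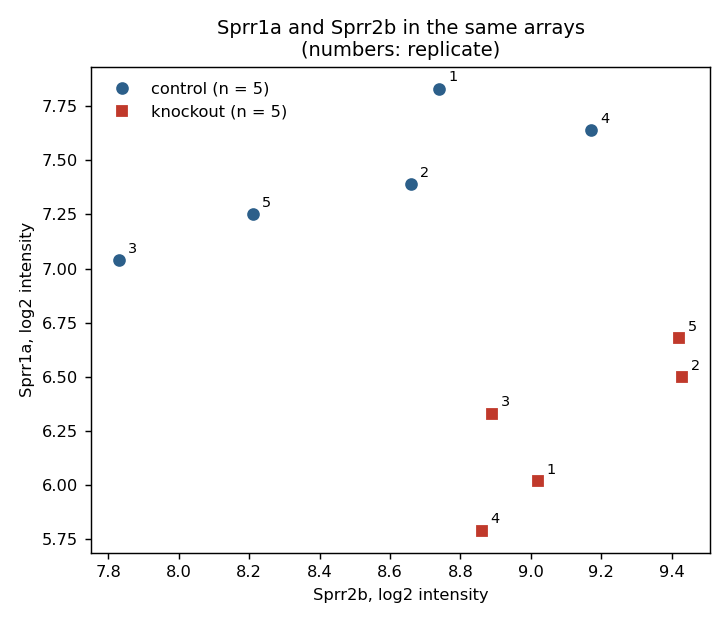
Log2 intensity of Sprr1a against Sprr2b in the same 10 arrays, numbered by replicate. The 5 controls and the 5 knockouts each run from lower left to upper right. All knockout points lie below all control points in Sprr1a. In Sprr2b the groups overlap, and only the knockout mean lies to the right of the control mean.

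Some members varied widely between arrays of 1 group. The SD around the group means was 0.34 for Sprr1a, 0.42 for Sprr2b, 0.48 for Sprr2d and 0.36 for Sprr2f, against a median of 0.18 over all genes. These 4 of 8 stood in the top 10% of all genes by that SD, with Sprr1a at percentile 90.1. Sprr2d and Sprr2f are dim, and the ranking took all genes together, whatever their intensity. The remaining 4 had SDs of 0.18 to 0.28, with Sprr1b at the median of all genes.

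Lists of genes around the family were read in the same fit, in which 12.1% of all genes had an unadjusted p under 0.05. In the epidermal differentiation complex around the Sprr row, such as the late cornified envelope (Lce) genes, 0 of 34 measured genes were called, 3 had an unadjusted p under 0.05, and 28 had mean signals below the array median. The list median was 0.01. Among transglutaminases, plakins, keratins and other cornified envelope partners, 0 of 24 were called, 4 had an unadjusted p under 0.05 and the median was -0.02. The smallest p in that list belonged to Cstb, the protease inhibitor cystatin B, at 0.29 (SE 0.08), and Dsp, which encodes the desmosome protein desmoplakin, at -0.51 (SE 0.15). Beside these medians, the median over all genes was -0.000354. Squamous epithelium markers, which would mark stray stomach or skin tissue, had 0 of 18 called and 2 with an unadjusted p under 0.05. Their mean level was 5.20 to 5.40 in knockout and 5.08 to 5.28 in control, and 12 of 18 lay below the array median. Ly6d had their smallest p, at 1.25 (SE 0.45), and of the 18 genes 10 were higher and 8 lower.

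Genes of pathways known to act on Sprr genes elsewhere were not called either. In the list of AP-1 and gp130 signalling 0 of 17 were called, 6 had an unadjusted p under 0.05 and the median was -0.07. Osmr, the oncostatin M receptor, stood at -0.71 (SE 0.20), Socs3, a feedback inhibitor of cytokine signalling, at 0.54 (SE 0.16), the cytokine gene Il6 at 0.30 (SE 0.10) and Fosb, an AP-1 subunit, at -0.77 (SE 0.27). The signal of Il6 was dim, with means of 2.70 in knockout and 2.40 in control, so its presence is not known. Of the 17 genes 3 lay below the array median. In the type 2 cytokine list 0 of 23 were called, 4 had an unadjusted p under 0.05 and the median was 0.04. The mast cell proteases Mcpt1 and Mcpt2 stood at 0.70 (SE 0.24) and 0.53 (SE 0.19), the eosinophil attractant Ccl24 at -0.68 (SE 0.24) and the transcription factor gene Stat6 at 0.21 (SE 0.09). Of the 23 genes 12 lay below the array median. Among these were Mcpt1, with means of 5.13 in knockout and 4.44 in control, and Mcpt2, with 3.61 and 3.08. Epithelial transcription factors had 0 of 23 called, 7 with an unadjusted p under 0.05 and a median of -0.00, with Gata6 at -0.38 (SE 0.12), Tead1 at 0.27 (SE 0.09), Pou2f3 at -0.41 (SE 0.14) and Elf3 at 0.36 (SE 0.13). In the list of injured and fetal-like epithelium 0 of 15 were called, 5 had an unadjusted p under 0.05, 10 had lower values in knockout and the median was -0.04. The smallest p belonged to the keratin gene Krt23 at -0.39 (SE 0.13), Il1rn, which encodes the interleukin-1 receptor antagonist, at 0.38 (SE 0.13), the growth factor gene Ereg at 1.02 (SE 0.39) and Ly6e at 0.44 (SE 0.19).

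Array by array, the list whose mean deviated most like Sprr1a was that of villus tip genes, which are known to be most active in the oldest enterocytes at the top of the villus. None of its 12 genes was called (limma), 2 had an unadjusted p under 0.05, 9 had lower values in knockout and the median was -0.17. The smallest p belonged to Egfr, the epidermal growth factor receptor gene, at -0.31 (SE 0.09), and Nt5e, the ecto-enzyme that makes adenosine, at -1.58 (SE 0.50). With each gene centred on its mean, the list stood at -0.35, 0.09, -0.03, -0.58 and 0.17 in knockouts 1 to 5 and at 0.24, 0.31, -0.22, 0.34 and 0.03 in controls 1 to 5. Knockouts 1 and 4 were the lowest, as they were for Sprr1a, and control 3 was the lowest control. The deviations around the group means had a Pearson r of 0.92 with Sprr1a (Spearman rho 0.87) over 10 arrays, and of 0.85 without knockouts 4 and 5. With Sprr2b r was 0.80 (rho 0.82), and 0.77 without controls 3 and 4. The list was not used as a covariate, and its part in the Sprr1a difference was not tested. The AP-1 and gp130 list had r of 0.82 with Sprr1a and 0.90 with Sprr2b, and it shares Fos and Junb with the villus tip list. These are the highest of 21 lists for both genes, so they were picked for their size.

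**Figure D5:**
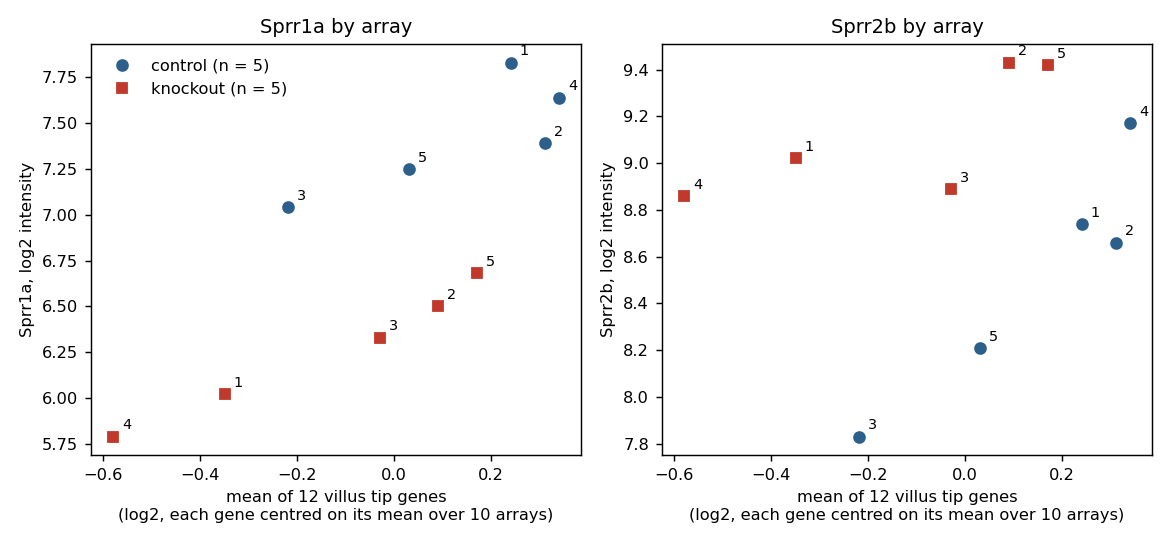
Log2 intensity of Sprr1a (left) and Sprr2b (right) against the mean of 12 villus tip genes in each of the 10 arrays, numbered by replicate. In both groups Sprr1a was lower in the arrays with the lowest list means and higher in those with high ones.

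Other differences between the arrays are given as measured, and the share of all genes with an unadjusted p under 0.05 was again 12.1%. Tuft cell markers had 9 of 10 lower in knockout and 9 of 10 with an unadjusted p under 0.05. Of these, 1 was called lower (Siglecf, -0.50, SE 0.09), and the list median was -0.40. Enteroendocrine markers had 12 of 12 lower and 8 of 12 with an unadjusted p under 0.05. The hormone genes Gip (-0.76, SE 0.11) and Sst (-0.71, SE 0.12) were the 2 called, and the list median was -0.41. In both lists the mean of every knockout lay below that of every control, at -0.31 to -0.10 against 0.06 to 0.37 for tuft cells and -0.46 to 0.00 against 0.07 to 0.39 for enteroendocrine cells, with each gene centred on its mean. The part of these lists in the Sprr values was not tested. The list of ileum genes marks the distal small intestine. Its mean levels were 8.43 to 10.12 in knockout and 8.67 to 9.25 in control. Of its 10 genes 0 were called, 6 had an unadjusted p under 0.05, 7 were higher and 3 lower, and the median was 0.24. The smallest p belonged to Fgf15 at 1.16 (SE 0.26), Cubn at -0.84 (SE 0.19), Fabp6 at 3.89 (SE 0.97) and Slc51a at 0.67 (SE 0.17). Fabp6 spanned 4.31 to 11.2 in knockout and 4.36 to 5.38 in control. Knockout 1 was the lowest of all arrays on this list, and the other 4 knockouts were above every control. When the ileum list entered the fit as a covariate, the difference was -1.37 for Sprr1a, which was then not called (limma adjusted p = 0.0832), and 0.42 for Sprr2b. Proliferation genes had a median of 0.53, with 0 of 17 called and 9 with an unadjusted p under 0.05. Smooth muscle markers overlapped between the groups, with 0 of 9 called, 0 with an unadjusted p under 0.05 and a median of -0.13. They stood highest in control 4, the control with the highest Sprr2b. Their deviations had r of 0.72 with Sprr2b and 0.42 without controls 3 and 4, and their part in the Sprr2b values was not tested.

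Among the remaining lists, Siglecf was also the 1 of 12 leukocyte markers called, and that list had 3 with an unadjusted p under 0.05 and a median of -0.10. None was called among 13 enterocyte markers (median -0.05; 1 with an unadjusted p under 0.05), 11 proximal intestine genes (-0.16; 3), 9 Paneth cell markers (0.29; 0), 10 goblet cell markers (-0.26; 6), 10 neutrophil markers (-0.03; 0) and 11 markers of stomach, pancreas and colon (0.01; 1). The smallest p belonged to Lct in the enterocyte and proximal lists, at -0.72 (SE 0.15), and to Fer1l6 in the goblet list, at -0.83 (SE 0.16). With each gene centred on its mean, the Paneth list stood at -2.28 in control 5 and -1.05 in knockout 1. In the other arrays it stood at -0.38 to 0.84.

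Single genes were also ranked by how closely their deviations followed the members over 10 arrays, among 10374 named genes with signal above the median. For Sprr1a the closest were Crlf2 (r 0.926), Tm4sf5 (0.925), Skil (0.920), Rasgef1b (0.919) and Aspa (0.916). Crlf2 encodes a receptor chain for the cytokine TSLP, and Skil an inhibitor of TGF-beta signalling. Of these, Skil stood at -0.73 (SE 0.15, limma adjusted p = 0.0716) between the groups, and the other 4 at -0.40 to 0.16. For the mean of the 5 Sprr2 members they were Fam8a1 (0.964), S1pr2 (0.948), Ptprh (0.941), Slc25a44 (0.933) and Samd9l (0.928), in a mean that rests mostly on dim probe sets. For Sprr2b alone, a pattern added after the data were seen, they were Esyt2 (0.946), Kcng1 (0.940), Mr1 (0.902), Clec2h (0.901) and Prrt2 (0.900), with differences between the groups of -0.13 to 0.35. These genes were picked as the highest of 10374, over only 10 arrays.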

How the data were processed

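RNA from 5 knockout and 5 control samples was hybridised to Affymetrix arrays, from 400 ng of total RNA per the labels' protocols. Per the submitters' processing notes, the authors used Affymetrix Expression Console 1.4.1.46 and RMA, which corrects background, brings arrays to a shared distribution and summarises probe sets. The deposited values are linear intensities (1.8 to 15278.7), and no further setting is known here. RMA hides a shift shared by most transcripts. Sequencing depth does not apply to arrays, whose number sets the precision.

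Of 41345 probe sets, 23521 carried 1 symbol in GEO's platform annotation, 1814 several and 16010 none. The probe set with the highest mean per gene left 22180 genes, and 0 sample columns were left unused. Groups, taken from sample titles, were compared on log2 intensity with limma 3.58.1 in R 4.3.3 (lmFit, eBayes, no trend, not robust), with Benjamini-Hochberg adjustment over all genes. On simulated data for knockout against control with 22180 genes, 38% of 50 genes changed by 0.5, 90% of 100 changed by 1 and 100% of 50 changed by 2 on the log2 scale were called, with 8 false calls of 167. The simulated noise was drawn separately for each gene, without deviations shared by the genes of 1 array. These shares may therefore not hold for the real arrays.

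The 8 members, 21 gene lists, motifs and naming rule were chosen with earlier results of these data known. The rule named all members, other Sprr genes, up to 4 genes of smallest p in a list and any called, and the 5 genes most like Sprr1a and the Sprr2 mean. Of 314 listed genes 285 were measured. Promoter windows came from RefSeq (GRCm38.p6), found for 8 of 8 members, and were aligned with Biopython 1.88.

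Alternatives were a median shift, quantile normalization, a filter removing the dimmest 30% of genes, averaging over probe sets of 1 gene, an offset of 16 before log2, trend with robust fitting, array weights, a replicate block, the ileum list as a covariate and omission of each array. Omission of knockout 1 with control 5, Sprr2b's likeness and the octamer were added after the data were seen.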

Additional observations from a re-analysis of the deposited data

Results flagged for a closer look

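Within groups of 5 arrays, the lowest array stood apart from the other 4 in 2 of 32 groups of values checked (12 Sprr genes and 4 distinct probe sets in 2 groups). Sprr3 was at 2.49 in knockout 2, against 2.96 to 3.14 in the other knockouts. Sprr2g was at 2.14 in knockout 2, against 2.35 to 2.43 in the other knockouts. The gap was 0.733 and 0.721 of the whole range, beyond Dixon's limit of 0.71. About 1 group in 20 would be marked by chance, and both probe sets are dim.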

How the results depend on the processing

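Under 20 alternatives the Sprr1a difference ran from -1.37 to -1.02, with a limma adjusted p of 0.0101 to 0.0832, and it was called under 12 of them. The Sprr2b difference ran from 0.42 to 0.76 and was called under 0. The dim members Sprr3 and Sprr2e changed sign under some alternatives, with ranges of -0.09 to 0.11 and -0.00 to 0.16. Array weights called 142 genes, 6 of them in the lists, where equal weights called 76 and 3. The ileum covariate called 4 genes, 0 members and 0 list genes. Without knockout 1 and control 5 together, 186 genes and 9 list genes were called. With 1 array left out at a time, called genes ran from 11 (without knockout 2) to 268 (without knockout 1), called members from 0 to 1, called list genes from 0 to 13 and the median member difference from -0.04 to 0.11. The cause of these changes was not tested. Same-numbered arrays did not deviate together (correlations of -0.135 to 0.125). No label says whether the numbers pair arrays, and low correlations cannot settle this. With the replicate block, 27 genes, 0 members and 0 list genes were called, and the adjusted p of Sprr1a was 0.0773 (limma). By median absolute deviation 3 rather than 4 members were in the top 10% of spread. Sprr2f stood at percentile 72.8 by that measure, against 91.7 by SD. Sprr3, outside the top 10% by both, stood at 44.9 and 73.1. Only 1 tissue piece, diet and time point were measured, detection calls were not used, and the dim members limit what can be said of most of the family.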
